A study of Homo sapiens with 50 samples.

Results

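The DNA replication genes followed here are 42 genes whose products prepare, run or regulate DNA replication, out of 18239 genes measured on the same arrays. They were chosen by name: 6 subunits of the MCM helicase, 6 partners of that helicase, 5 genes of origin licensing and 9 subunits of the DNA polymerases and primase. The licensing genes include GMNN, whose product inhibits the licensing factor CDT1. The clamp and its loader gave 6 more genes, single-strand binding 3, Okazaki fragment processing 2, dNTP supply 4 and the reading of hemimethylated DNA 1. Each gene was represented by the probe set with its highest mean signal over all 50 arrays, and none of the 42 was lost to a filter on low signal.

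The cells were A549, an established human lung adenocarcinoma line. They were grown in RPMI and moved to BME medium with non-essential amino acids, some cells with serine and the others without. After 24 h in that medium they were given compound 16 at 1 uM or DMSO. The series title is about small-molecule activation of PKM, the pyruvate kinase that completes glycolysis, and about the need for serine that follows, and compound 16 is the molecule its design text names. Arrays were taken at 0, 1.5, 6 and 24 h after the addition, which gives 16 groups: compound 16 with serine, DMSO with serine, compound 16 without serine and DMSO without serine, each at the 4 times. A further group of 3 arrays comes from cells collected before the change of medium, which makes 17 groups. Each group held 3 arrays except DMSO with serine at 1.5 h, which held 2. Nothing in the labels says that the triplicates were separate cultures, and the p-values therefore reflect the scatter among the arrays alone, part or all of which may be technical. The number at the end of each array title runs in blocks that follow the time points, with no gap between 1.5 and 6 h. Time and block of numbers therefore cannot be told apart. Within each time point the numbers run in 1 order: compound 16 with serine, DMSO with serine, compound 16 without serine, DMSO without serine. Serine and compound were compared within a time point, but this order of numbers cannot be told apart from them either.

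Across the 50 arrays the median signal of an array lay between 5.40 and 5.54 on the log2 scale and no pair of arrays held identical values. The 6 epithelial keratin and adhesion markers lay between 9.07 and 14.4 and the 6 A549 enzyme markers between 12.7 and 14.4, while 4 fibroblast markers did not exceed 5.32, 3 endothelial markers did not exceed 5.43 and 3 immune markers did not exceed 6.99. The 3' minus 5' difference of the GAPDH control probe sets stayed between -0.19 and -0.12 over the group means, and that of ACTB between 1.01 and 1.37. Signals are log2 values of single probe sets and depend on the probes as well as on the RNA, so beyond this check of markers they are compared between groups and not between genes.

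DNA is copied once per cell cycle. In G1, ORC, CDC6 and CDT1 load the MCM helicase onto origins. In S phase CDC45 and the GINS complex switch the helicase on, primase and the polymerases copy the strands, PCNA and its loader hold the polymerases in place, and FEN1 and LIG1 join the lagging strand. Ribonucleotide reductase, thymidylate synthase and thymidine kinase supply the nucleotides, and many of these genes are transcribed under E2F factors as cells approach S phase. One-carbon units taken from serine feed the synthesis of purines and of thymidylate.

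Promoters were read first, because E2F control is the feature these genes are best known to share. The RefSeq promoter table (GRCh38.p14) held 36 of the 42 members, and the 250 bases before the first listed start of each were searched on both strands. The letters searched as an E2F word were TTTCCCGC, TTTCGCGC, TTTGCCGC and TTTGGCGC, and a promoter counted once however many words it held. Such a word stood in 13 of the 36 members (36.1%) and in 2.79% of all 27305 promoters of the same length. It stood in 8% of 25 promoters of further replication genes and in 11.1% of 18 promoters of mitosis genes. The word CCAAT, the core of the NF-Y site, stood in 58.3% of the members and 33% of all promoters. Its share was 56% in the further replication genes and 88.9% in the mitosis genes, so it was not particular to the members. The CHR words TTTGAA and TTCGAA, elements known from late cell cycle genes, stood in 5.56% of the members, 14.6% of all promoters and 55.6% of 18 promoters of mitosis genes. A match is a description of letters only. The 150 bases before the start are printed, 5' to 3' on the gene's strand, for 5 members described below that hold an E2F word there, and the E2F word is in capitals.
POLA2, chr11:65261812-65261961, plus strand: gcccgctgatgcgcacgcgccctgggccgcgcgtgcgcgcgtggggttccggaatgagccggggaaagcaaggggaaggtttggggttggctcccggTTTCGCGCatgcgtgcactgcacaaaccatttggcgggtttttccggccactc
PCNA, chr20:5126623-5126772, minus strand: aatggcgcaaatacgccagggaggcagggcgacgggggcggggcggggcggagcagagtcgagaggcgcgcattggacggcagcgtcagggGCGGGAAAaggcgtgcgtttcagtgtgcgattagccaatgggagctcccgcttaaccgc
LIG1, chr19:48170345-48170494, minus strand: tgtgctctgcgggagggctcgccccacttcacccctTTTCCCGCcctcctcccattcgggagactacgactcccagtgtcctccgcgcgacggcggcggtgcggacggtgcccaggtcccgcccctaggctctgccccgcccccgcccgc
TYMS, chr18:657503-657652, plus strand: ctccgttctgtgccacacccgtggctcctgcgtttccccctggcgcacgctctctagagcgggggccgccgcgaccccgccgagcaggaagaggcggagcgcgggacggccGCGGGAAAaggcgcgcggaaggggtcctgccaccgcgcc
UHRF1, chr19:4909351-4909500, plus strand: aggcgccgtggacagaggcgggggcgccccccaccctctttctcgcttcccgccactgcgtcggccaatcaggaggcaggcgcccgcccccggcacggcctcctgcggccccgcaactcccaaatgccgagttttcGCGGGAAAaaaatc
In POLA2 the word began 53 bases before the start, in PCNA 59, in LIG1 114, in TYMS 39 and in UHRF1 14. RRM2, the member with the smallest p-value for compound 16 without serine at 24 h, held no such word, and its promoter is printed with its CCAAT words in capitals because there were 3 of them, at 123, 93 and 66 bases before the start.
RRM2, chr2:10122589-10122738, plus strand: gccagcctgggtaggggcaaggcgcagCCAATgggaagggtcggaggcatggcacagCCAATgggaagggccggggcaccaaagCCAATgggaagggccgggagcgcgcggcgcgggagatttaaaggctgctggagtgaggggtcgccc
Members with and without an E2F word were both among those that responded, in counts given as a description with no test. For compound 16 without serine 4 of the 13 members with the word were lower at 6 h and 7 of the 23 without it, against 1.23% of all genes. At 24 h the counts were 4 of 13 and 12 of 23, against 4.08% of all genes. For the change to medium with serine they were 8 of 13 and 14 of 23, against 9.46%. From 6 to 24 h in DMSO with serine they were 9 of 13 and 15 of 23, against 9.67%. The median difference of members with the word was -0.19, -0.17, -0.29 and -0.33 in these comparisons, and without it -0.16, -0.24, -0.31 and -0.28, so neither set was the lower in all of them.

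The 42 genes moved as a group between conditions. For each array the median was taken over the members of the signal relative to the gene's own mean over all 50 arrays. The 3 arrays taken before the change of medium had the highest medians, from 0.39 to 0.42, and the 3 arrays of compound 16 without serine at 24 h had the lowest, from -0.42 to -0.32. At 6 h the DMSO arrays with serine stood at 0.19 to 0.27, the compound arrays with serine at 0.22 to 0.24, the DMSO arrays without serine at 0.02 to 0.03 and the compound arrays without serine at -0.17 to -0.14. The 2 groups with serine overlapped at that time, and the 2 groups without serine lay apart from each other and below both. Of the 42 members, 26 had their highest group mean before the change of medium and 26 had their lowest in compound 16 without serine at 24 h. RNA was taken from whole cultures, so fewer cells in S phase and less RNA of these genes per cell cannot be told apart.

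**Figure D1:**
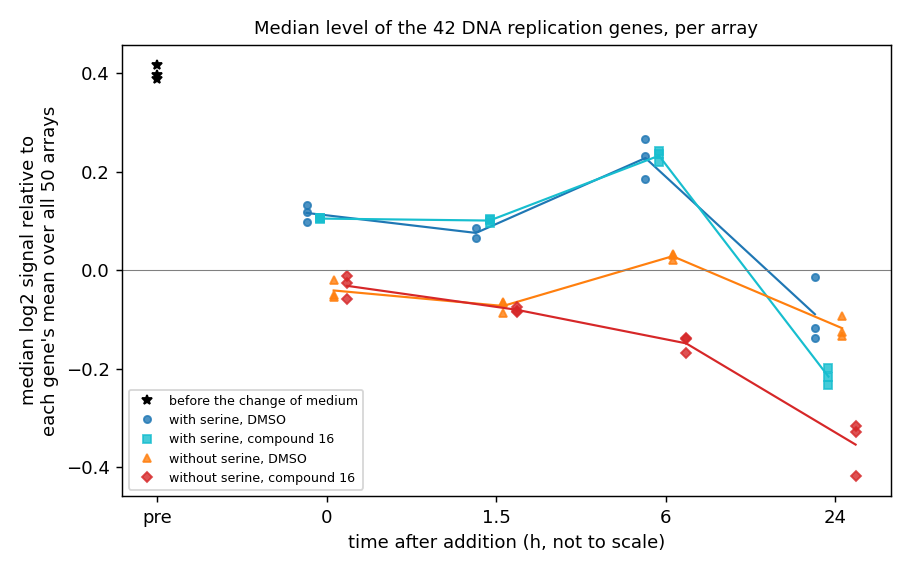
Median log2 signal of the 42 DNA replication genes on each array, relative to each gene's mean over all 50 arrays, by time after addition of compound 16 or DMSO; points are arrays and lines join group means. The arrays before the change of medium sit highest, at 0.39 to 0.42, and the arrays of compound 16 without serine at 24 h lowest, at -0.42 to -0.32.

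The change of medium was followed by lower signals of most members. In DMSO with serine at 0 h, 24 h into the new medium, 24 of the 42 members were lower than before the change and none was higher, against 9.46% of all genes lower and 12.3% higher. The median difference over the members was -0.29, beside 0.01 over all genes. Without serine 32 members were lower and none higher, against 12.6% of all genes lower and 16% higher, and the median was -0.46 beside 0.01 over all genes. A call here and throughout is an adjusted p under 0.05 in limma, with Benjamini-Hochberg adjustment over all 18239 genes of the comparison. MCM10, which helps the helicase start, read 9.02, 8.96 and 8.95 before the change. It read 8.41, 8.49 and 8.46 in DMSO with serine and 7.96, 8.45 and 8.15 in DMSO without serine. The 3 groups did not overlap except that 1 array without serine lay within the range of the arrays with serine, and the drops were 0.52 (limma adjusted p = 4.4e-05) and 0.78 (adjusted p = 1.63e-08) on the log2 scale. POLE2, a subunit of the leading-strand polymerase, fell by 0.59 with serine and by 0.73 without. Markers moved with the medium too: with serine KRT19 rose by 0.57, AKR1C1 by 0.43 and CDH1 by 0.23 and ALDH3A1 fell by 0.15, and without serine KRT19 rose by 0.68, AKR1C1 by 0.66 and AKR1C2 by 0.13 and KRT7 fell by 0.14. Their part in the member values was not tested. The base medium, the hours in culture and the block of array numbers all differed between these groups and cannot be told apart.

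After the addition of DMSO alone the members did not stay level. From 0 to 6 h with serine 13 members rose and 3 fell, against 4.67% of all genes higher and 9.62% lower. Without serine 11 rose and 6 fell, against 8.15% higher and 14.3% lower. The count of members that fell was below the share of all genes with serine and near it without. The falls named below are therefore a description of single genes and not particular to the members. The largest rises with serine were in a helicase factor, a nucleotide enzyme and a licensing factor. There MCM10 rose by 0.65, RRM2, the regulated subunit of ribonucleotide reductase, by 0.61, and CDC6, the loader of the MCM helicase, by 0.50. RRM2 read 11.16, 11.06 and 11.06 at 0 h and 11.67, 11.73 and 11.72 at 6 h, and without serine 10.71, 10.77 and 10.86 at 0 h and 11.52, 11.54 and 11.5 at 6 h. The times did not overlap in either medium, and RRM2 had the largest rise of all members without serine, 0.74 (limma adjusted p = 1.79e-11). The 3 members that fell with serine were RFC1, the large subunit of the clamp loader (-0.32), POLA1, the catalytic subunit of polymerase alpha (-0.28), and POLD2, a subunit of polymerase delta (-0.25), and all 3 fell without serine too (-0.52, -0.33 and -0.26). Centring each array on its median moved all genes by 0.15 with serine and 0.13 without, after which the counts were 25 higher and 0 lower with serine and 21 higher and 3 lower without. Among the cell type markers CDH1 fell by 0.58 and CD14 by 1.10 with serine. Without serine CDH1 fell by 0.32, KRT19 by 0.21 and KRT7 by 0.15, and EPCAM rose by 0.43, and the part of these in the member values was not tested.

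From 6 to 24 h the direction turned. In DMSO with serine 28 members fell and none rose, against 9.67% of all genes lower and 5.78% higher, with a median of -0.33 over the members and -0.00 over all genes. MCM10 fell by 1.02, CDC6 by 0.80 and UHRF1, which reads hemimethylated DNA behind the fork, by 0.74. UHRF1 read 9.29, 9.27 and 9.29 at 6 h and 8.52, 8.58 and 8.55 at 24 h, with no overlap. With serine and compound 16, 34 members fell and none rose, against 11.6% of all genes lower and 8.41% higher, with a median of -0.44. Without serine the fall was called for fewer members: 13 in DMSO, with 1 higher, against 7.35% of all genes lower and 4.47% higher, and 16 in compound 16, with none higher, against 7.23% lower and 3.33% higher. The one member that rose in DMSO without serine was TK1, the thymidine kinase of S phase, by 0.24 (limma adjusted p = 0.0247). The difference in this fall between the media was not tested. In DMSO without serine the count of 14 changed members was 9 without the 24 h array on which RRM2 read 11.45, and 9 without the one on which it read 11.34. With each array centred on its median, 7 members fell and 3 rose in DMSO without serine, and 9 fell and 0 rose in compound 16 without serine. Markers moved over this interval as well: in DMSO with serine CDH1 rose by 0.45 and AKR1C1 by 0.35 while KRT7 fell by 0.32 and KRT19 by 0.18, and in DMSO without serine AKR1C1 rose by 0.23 and AKR1C3 by 0.11 while KRT7 fell by 0.25. In compound 16 with serine CDH1 and AKR1C1 rose and KRT8, KRT19, KRT7 and LUM fell, and without serine CD14 fell by 0.66. Their part in the member values was not tested.

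**Figure D2:**
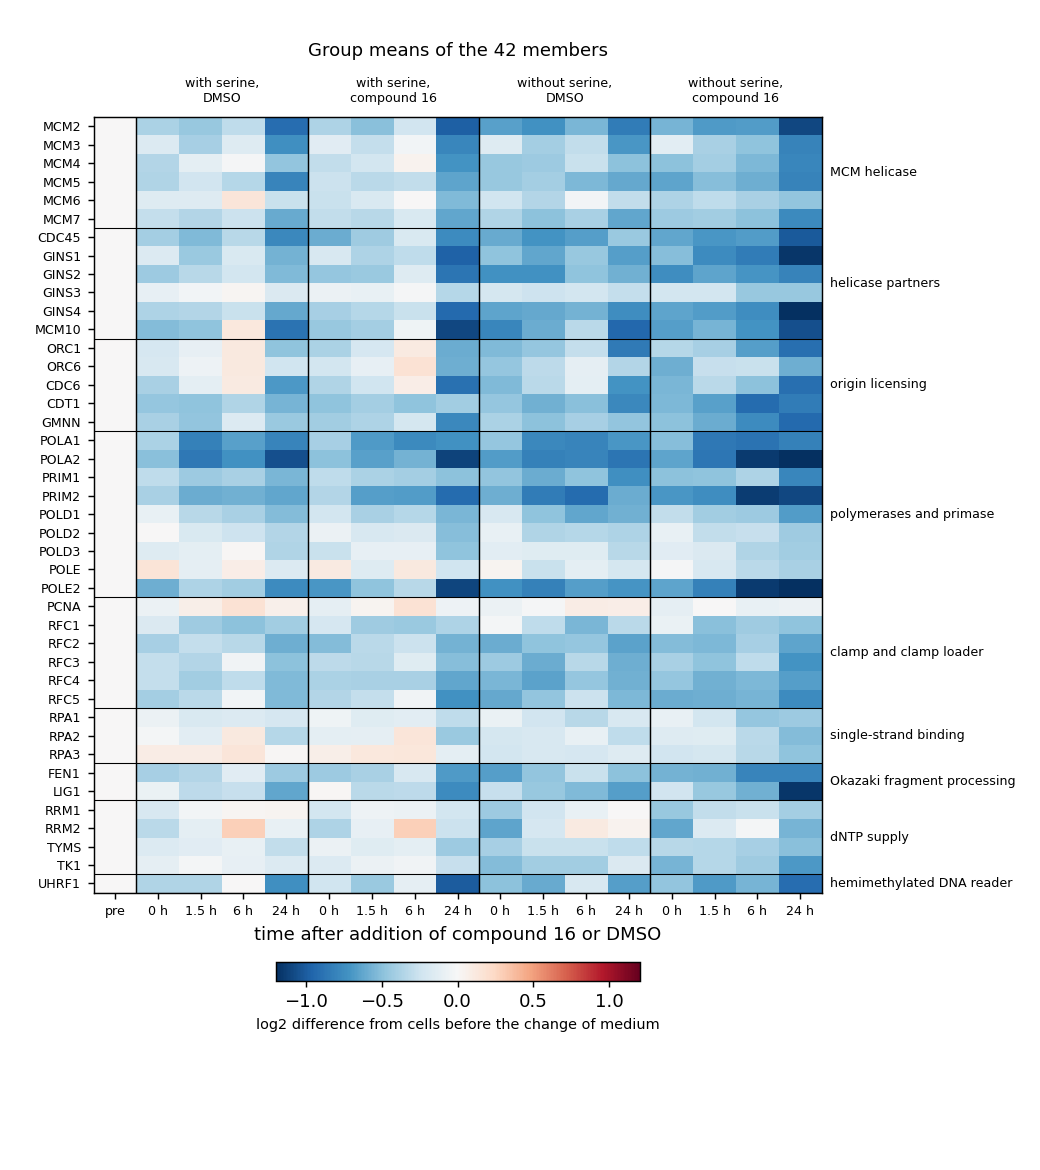
Group means of the 42 members as log2 differences from the cells before the change of medium, with members in rows by role and the 17 groups in columns; blue is lower and red higher. In both media the DMSO groups are paler at 6 h than at 24 h for most members, and the column of compound 16 without serine at 24 h holds the lowest mean of 26 members.

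Medium without serine was compared with medium with serine in the DMSO cells at each time. At 0 h, after 24 h without serine, 12 members were lower and none higher, against 2.92% of all genes lower and 2.99% higher. All 4 genes of nucleotide supply were among them: TK1 (-0.41), RRM2 (-0.31), RRM1, the large subunit of ribonucleotide reductase (-0.24), and TYMS, thymidylate synthase (-0.23). TK1 read 10.88, 10.95 and 10.99 with serine and 10.3, 10.57 and 10.72 without, and TYMS 12.37, 12.4 and 12.33 with and 12.14, 12.12 and 12.14 without, with no overlap in either gene. At 1.5 h 3 members were lower, POLE2, GINS2 and TK1, against 0.927% of all genes lower and 1.05% higher. At 6 h 10 members were lower, against 1.43% of all genes lower and 1.75% higher, and the differences of all 42 were below 0, with a median of -0.20 beside 0.00 over all genes. MCM10 had the largest at 6 h: 9.01, 9.11 and 9.19 with serine and 8.63, 8.68 and 8.64 without, a drop of 0.45 with no overlap (limma adjusted p = 0.00251).

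At 24 h the DMSO groups of the 2 media were close. No member was called in limma, against 0.0713% of all genes lower and 0.0877% higher, and the median was -0.02. At an unadjusted p under 0.05 in limma were 6 of the 42 members and 1427 of the 18239 genes. TK1, with a difference of -0.01, read 10.86, 10.88 and 10.92 with serine and 10.88, 10.88 and 10.88 without. The 6 members under the unadjusted threshold lay further apart, in both directions. CDC45 (0.33) and RRM2 (0.13) were higher without serine. ORC1 (-0.37), CDT1 (-0.22), PRIM1 (-0.19) and RPA3 (-0.16) were lower. The change of the serine difference from 6 to 24 h was not tested. These counts moved with single arrays: at 0 h the count was 7 without array 13, 6 without array 15 and 6 without array 19, and at 1.5 h it was 0 without array 49 and 1 without array 50. At 1.5 h it was also 13 with each array centred on its median, 8 with the mean of all probe sets of a gene and 6 without dim genes. At 6 h it was 4 without array 62 and 6 without array 61, 66, 67 or 68, while averaging the probe sets of each gene gave 20. A fit of only the arrays compared called 0 members at 0 h, at 1.5 h and at 6 h. Of the markers ALDH3A1 was higher by 0.25 without serine at 0 h and EPCAM by 0.45 at 6 h, and their part in the member values was not tested.

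Under compound 16 more members were called for the lack of serine at 6 h than in DMSO, where 10 were lower against 1.43% of all genes. The difference between the serine effects in compound 16 and DMSO is the contrast tested below between media, which called 4 members at 6 h. At 6 h 31 of the 42 members were lower without serine, against 5.55% of all genes lower and 6.22% higher, with a median of -0.44 beside -0.01 over all genes. POLE2 had the largest difference, -0.82, with 9.42, 9.63 and 9.42 with serine and 8.73, 8.60 and 8.69 without. ORC1, the large subunit of the origin recognition complex, was 0.76 apart, with 7.43, 7.36 and 7.61 with serine and 6.92, 6.73 and 6.46 without. Neither gene's groups overlapped. Of the 6 epithelial markers KRT19 was lower by 0.46, KRT8 by 0.17 and KRT18 by 0.12 at 6 h and EPCAM and CDH1 were higher by 0.40 and 0.22, and their part in the member values was not tested. At 24 h 7 members were lower, against 2.54% of all genes lower and 1.85% higher: POLA2 (-0.45), CDT1 (-0.42), TK1 (-0.42), LIG1 (-0.41), RPA3 (-0.37), RRM2 (-0.31) and PRIM1 (-0.29). That count was 4 without array 99, and 0 when only the 6 arrays compared were fitted. The value of CDT1 is that of the probe set used, and its probe sets disagreed in the compound comparisons given below. The compound arrays here also enter the compound comparisons, so these values are not a separate line of evidence for them.

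Compound 16 was then compared with DMSO at the same time in the same medium. At 0 and 1.5 h no member was called in either medium. Without serine 1 member at each time had an unadjusted p under 0.05 in limma, beside 1318 of the 18239 genes at 0 h and 808 at 1.5 h. With serine no member had, beside 1029 genes at 0 h and 614 at 1.5 h. By adjusted p, 0% of all genes were called lower and 0% higher at 0 h in both media and at 1.5 h with serine. At 1.5 h without serine 0.00548% were called lower and 0.0768% higher. With serine the 6 h comparison gave no call either, against 0% of all genes lower and 0% higher, and the median was -0.01. At an unadjusted p under 0.05 in limma were 0 members and 1105 of the 18239 genes. The 95% interval of the 6 h difference with serine was -0.13 to 0.11 for RRM2, -0.22 to 0.09 for FEN1 and -0.15 to 0.07 for GMNN, the inhibitor of CDT1.

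Without serine the response was present at 6 h. Compound 16 lowered 11 of the 42 members and raised none, against 1.23% of all genes lower and 1.49% higher. The median over the members was -0.18, beside -0.01 over all genes, and 36 of the 42 differences were below 0. FEN1, the flap nuclease of Okazaki fragments, changed most: it read 11.12, 11.07 and 11.08 in DMSO and 10.45, 10.59 and 10.67 in compound 16. The groups did not overlap, and the drop of 0.52 (SE 0.08) is 1.43-fold (limma adjusted p = 1.51e-05). POLE2 read 9.18, 9.15 and 9.13 in DMSO and 8.73, 8.60 and 8.69 in compound 16, a drop of 0.48 with no overlap.

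By role, 3 of 5 licensing genes, with the inhibitor GMNN among them, 2 of 6 helicase partners and 1 of 6 MCM subunits were called at 6 h. CDC6 read 9.96, 9.97 and 10.06 in DMSO and 9.60, 9.63 and 9.63 in compound 16, a drop of 0.38. GMNN read 10.95, 10.92 and 10.92 in DMSO and 10.59, 10.6 and 10.53 in compound 16, a drop of 0.36. GINS1, a subunit of the complex that activates the helicase, fell by 0.38 and MCM10 by 0.39. All 4 were apart from DMSO on every array, and MCM6 (-0.36), UHRF1 (-0.37), RFC5 (-0.30) and PCNA (-0.18) were lower too. PCNA, the sliding clamp, read 13.03, 12.99 and 13.08 in DMSO and 12.83, 12.88 and 12.86 in compound 16. CDT1, the partner of CDC6 in loading MCM, was called lower (-0.42), but its other 2 probe sets differed by 0.28 and 0.21 in the opposite direction. No gene of nucleotide supply was called at 6 h: the differences were -0.17 for RRM1, -0.13 for RRM2, -0.13 for TYMS and -0.01 for TK1, whose 95% interval ran from -0.16 to 0.14. Of the markers of cell type the epithelial KRT19 fell by 0.41 in this comparison, and its part in the member values was not tested. Without array 63, of the compound group, 7 members were called, and a fit of only the 6 arrays compared called 2.

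**Figure D3:**
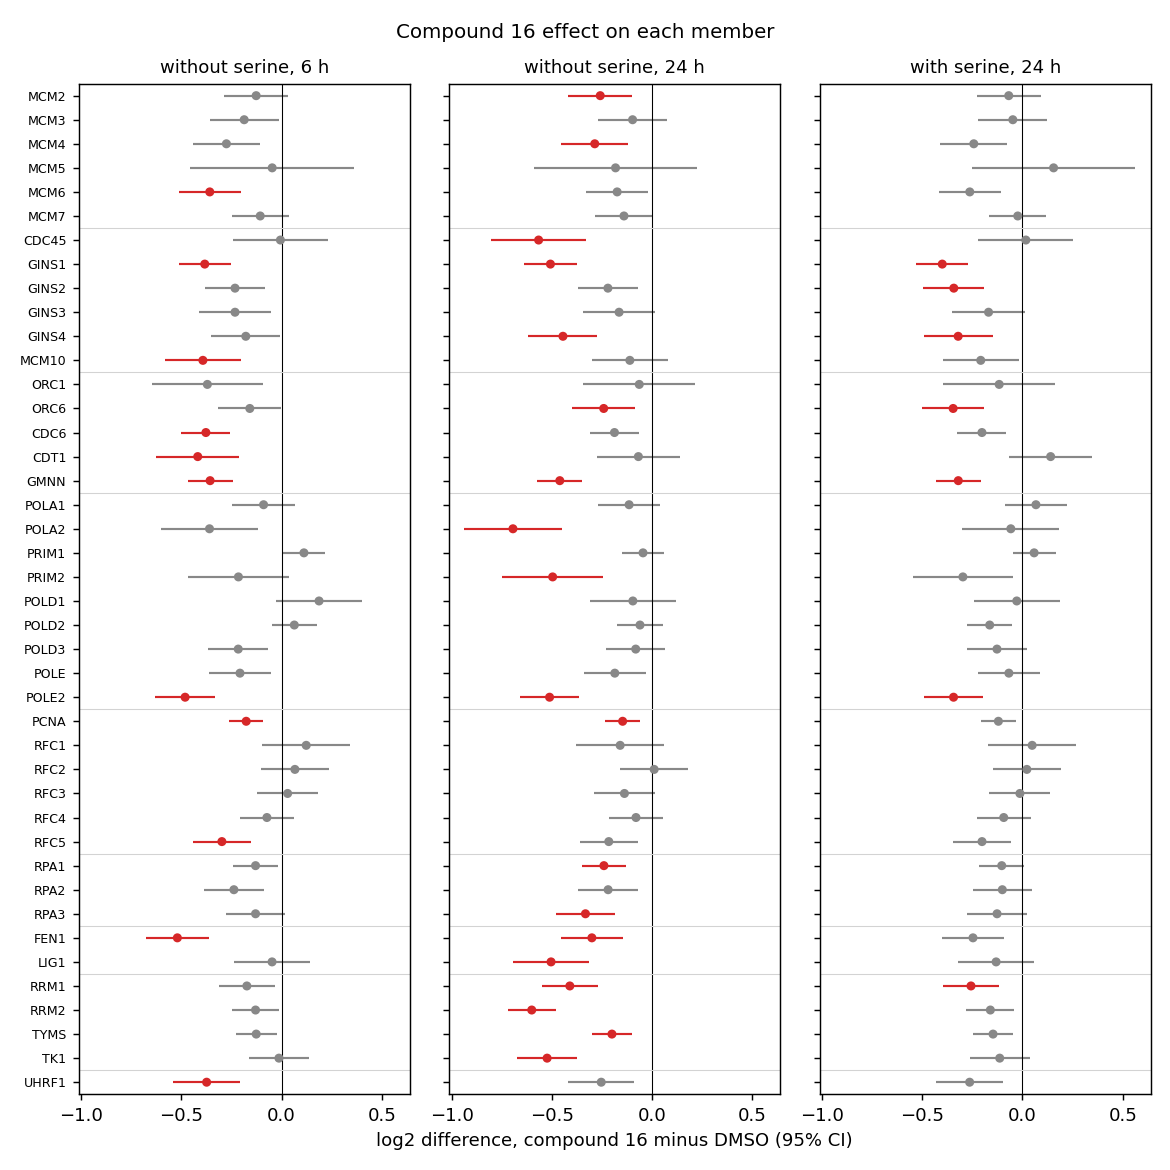
Log2 difference of compound 16 minus DMSO for each member, with its 95% confidence interval from limma, without serine at 6 h, without serine at 24 h and with serine at 24 h; red points have an adjusted p under 0.05. No red point lies above 0, and the counts of red points are 11, 19 and 7.

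At 24 h without serine 19 members were lower under compound 16 and none was higher, against 4.08% of all genes lower and 2.97% higher. The median was -0.21, beside 0.00 over all genes, and 41 of the 42 differences were below 0. Each of the 9 roles but one had members that fell. They were 2 of 6 MCM subunits, 3 of 6 helicase partners, 2 of 5 licensing genes, 3 of 9 polymerase and primase subunits and 1 of 6 clamp genes. Single-strand binding gave 2 of 3, Okazaki fragment processing 2 of 2 and nucleotide supply 4 of 4, while UHRF1, alone in its role, was not called (-0.25, limma adjusted p = 0.0512), with 8.68, 8.66 and 8.52 in DMSO and 8.16, 8.44 and 8.49 in compound 16. Of all probe sets annotated to the members, 95 were lower under the compound and 7 were not, and of the 15 called members with several probe sets 13 had 1 sign in all of them.

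Nucleotide supply fell as a whole at this time. RRM2 read 11.45, 11.58 and 11.34 in DMSO and 10.91, 10.85 and 10.81 in compound 16, a drop of 0.60 (SE 0.06) or 1.52-fold (limma adjusted p = 7.42e-10). TK1 read 10.88 on all 3 DMSO arrays and 10.2, 10.4 and 10.47 in compound 16, a drop of 0.52 or 1.44-fold. Neither gene's groups overlapped. RRM1 read 11.06, 11.1 and 11.02 in DMSO and 10.69, 10.61 and 10.65 in compound 16, a drop of 0.41. TYMS, which makes thymidylate with a one-carbon unit from folate, fell by 0.20, from 12.23, 12.19 and 12.27 to 12.03, 12.06 and 12.0. In TK1 the DMSO arrays without serine lay within the range of the DMSO arrays with serine, and the compound arrays without serine lay below every array of both.

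Among the polymerases POLA2, the second subunit of polymerase alpha, changed most of all 42 members. It read 7.76, 7.85 and 7.62 in DMSO and 7.03, 7.15 and 6.97 in compound 16, a drop of 0.69 (SE 0.12) or 1.62-fold (limma adjusted p = 6.85e-05), with no overlap. POLE2 read 9.18, 8.96 and 9.19 in DMSO and 8.59, 8.64 and 8.57 in compound 16, a drop of 0.51. PRIM2, the large primase subunit, fell by 0.50. PRIM1, the catalytic primase subunit, differed by -0.05, with 9.72, 9.64 and 9.62 in DMSO and 9.65, 9.62 and 9.58 in compound 16, which overlap. POLA1, POLD1, POLD2, POLD3 and POLE were not called, with differences between -0.19 and -0.06.

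The helicase and its partners differed in size. CDC45, which joins MCM and GINS into the active helicase, fell by 0.57, with 8.16, 8.05 and 8.07 in DMSO and 7.15, 7.64 and 7.79 in compound 16. GINS1 read 10.76, 10.65 and 10.75 in DMSO and 10.19, 10.28 and 10.17 in compound 16, a drop of 0.51, and GINS4 read 8.91, 8.76 and 8.89 against 8.46, 8.36 and 8.39, a drop of 0.44. None of these 3 overlapped. Of the MCM ring MCM4 fell by 0.29 and MCM2 by 0.26. MCM4 read 9.47, 9.84 and 9.74 in DMSO and 9.39, 9.51 and 9.29 in compound 16, where 1 array lay within the DMSO range. MCM2 read 8.35, 8.43 and 8.59 against 7.99, 8.26 and 8.34, with almost no gap. MCM3 differed by -0.10, MCM5 by -0.18, MCM6 by -0.17 and MCM7 by -0.14, none of them called. MCM10, lower at 6 h, differed by -0.11 at 24 h, and its groups overlapped.

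Of the licensing genes GMNN, the inhibitor of CDT1 and not a loading factor, fell by 0.46. ORC6, a subunit of the origin recognition complex, fell by 0.24. GMNN read 10.85, 10.85 and 10.88 in DMSO and 10.34, 10.4 and 10.46 in compound 16. ORC6 read 9.71, 9.73 and 9.83 in DMSO and 9.48, 9.56 and 9.50 in compound 16, and neither overlapped. ORC1 differed by -0.06 with overlap, and CDC6 by -0.19 (limma adjusted p = 0.0514).

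On the lagging strand LIG1, the ligase that seals Okazaki fragments, read 8.26, 8.18 and 8.37 in DMSO and 7.63, 8.04 and 7.62 in compound 16, a drop of 0.50. FEN1 read 10.89, 10.79 and 10.92 against 10.59, 10.46 and 10.65, a drop of 0.30. Of the RPA trimer that coats single strands, RPA3 fell by 0.33 and RPA1 by 0.24. RPA3 read 10.35, 10.29 and 10.41 in DMSO and 9.95, 10.08 and 10.02 in compound 16, and RPA1 11.65, 11.56 and 11.65 against 11.31, 11.39 and 11.44. RPA2 differed by -0.22 without a call (limma adjusted p = 0.0641). PCNA read 13.06, 13.02 and 12.99 in DMSO and 12.89, 12.87 and 12.87 in compound 16, a drop of 0.15. Its loader was not called at any of its 5 subunits, with RFC5 at -0.22 (adjusted p = 0.0595), where 9.54, 9.64 and 9.46 in DMSO overlapped 9.47, 9.36 and 9.16 in compound 16, and RFC2 at 0.01, whose 95% interval was -0.16 to 0.18. Of the 6 epithelial markers KRT19 fell by 0.30, KRT8 fell by 0.19 and KRT7 rose by 0.36 here, and CD14, an immune marker, fell by 0.78 from 5.80, 6.24 and 6.03, and the part of these in the member values was not tested. Fitting only the 6 arrays of the comparison called 8 members, and leaving out 1 array at a time called 14 to 18.

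**Figure D4:**
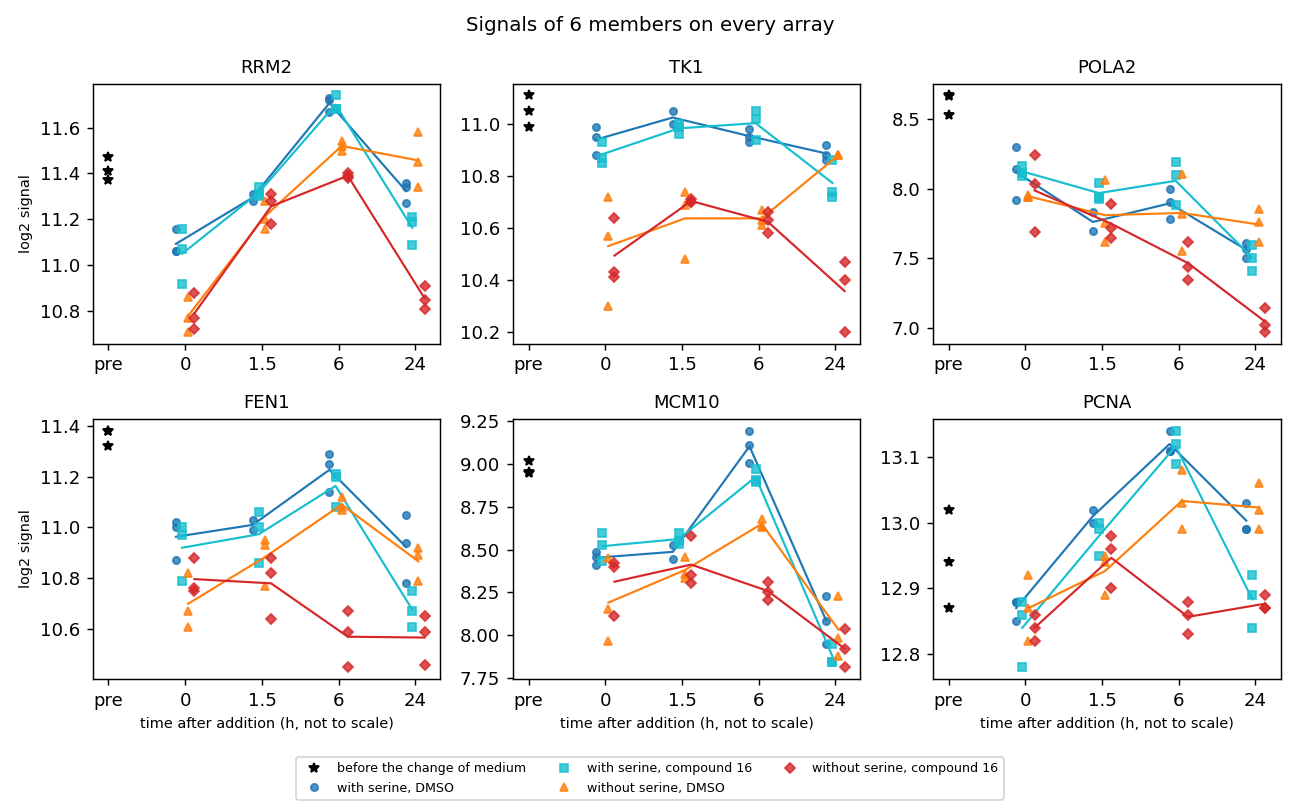
Log2 signals of RRM2, TK1, POLA2, FEN1, MCM10 and PCNA on every array, by time after addition and by medium and treatment; points are arrays and lines join group means, and each panel has its own axis. At 24 h the compound 16 arrays without serine lie below the DMSO arrays without serine in RRM2, TK1, POLA2, FEN1 and PCNA, and overlap them in MCM10.

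The 6 h and 24 h lists shared 5 members: GINS1, GMNN, POLE2, PCNA and FEN1. That is 45.5% of the 6 h list and 26.3% of the 24 h list, and the 2 comparisons share no arrays. The 6 members called only at 6 h were MCM6, MCM10, CDC6, CDT1, RFC5 and UHRF1, and 14 were called only at 24 h. A call at one time and not at the other is not a difference, so the change of the compound effect from 6 to 24 h was tested in the same fit, in a comparison added after the values were seen. It was called for 2 members, against 1.16% of all genes lower and 0.57% higher. The effect was larger at 24 h by 0.47 in RRM2 (limma adjusted p = 0.000453) and by 0.51 in TK1 (adjusted p = 0.00296). LIG1 differed by -0.46 (adjusted p = 0.0687).

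With serine compound 16 lowered 7 members at 24 h and raised none, against 0.62% of all genes lower and 0.746% higher, with a median of -0.13 beside 0.00 over all genes. They were GINS1 (-0.40), ORC6 (-0.35), POLE2 (-0.34), GINS2 (-0.34), GINS4 (-0.32), GMNN (-0.32) and RRM1 (-0.26). GINS1 read 10.74, 10.78 and 10.9 in DMSO and 10.48, 10.34 and 10.4 in compound 16, and GMNN 10.86, 10.9 and 10.88 against 10.45, 10.57 and 10.66. ORC6 read 10.0, 9.81 and 9.79 in DMSO and 9.44, 9.52 and 9.61 in compound 16. None of these 3 genes overlapped. The differences of RRM2 (-0.16), TK1 (-0.11) and POLA2 (-0.06) were not called, and the 95% interval was -0.28 to -0.04 for RRM2, -0.26 to 0.04 for TK1 and -0.30 to 0.18 for POLA2. Of the markers KRT19 fell by 0.23. The probe sets of CDT1 disagreed in size here (0.14 in the one used, 0.41 and 0.52 in the others). The count was 2 without array 94 and 4 without array 98, 12 with the mean of all probe sets of a gene, and 0 with only the 6 arrays compared.

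Whether the compound effect depended on serine was tested as the difference of the 2 effects. At 6 h the effect was lower without serine for 4 members and higher for none, against 0.28% of all genes lower and 0.62% higher. They were POLE2 (-0.57, limma adjusted p = 0.00112), FEN1 (-0.46, adjusted p = 0.025), CDC6 (-0.35, adjusted p = 0.0279) and GMNN (-0.32, adjusted p = 0.0328). With serine at 6 h FEN1 read 11.25, 11.29 and 11.14 in DMSO and 11.2, 11.08 and 11.21 in compound 16, which overlap. At 24 h it was lower for 3 members, against 0.899% of all genes lower and 0.384% higher. They were POLA2 (-0.64, adjusted p = 0.0476), RRM2 (-0.44, adjusted p = 0.00155) and TK1 (-0.41, adjusted p = 0.034). The DMSO groups enter this difference too. At 24 h in DMSO POLA2 was higher without serine by 0.18 and RRM2 by 0.13, and TK1 differed by -0.01, none of them called. With serine at 24 h RRM2 read 11.27, 11.36 and 11.34 in DMSO and 11.19, 11.09 and 11.21 in compound 16, and TK1 10.86, 10.88 and 10.92 against 10.86, 10.72 and 10.74. The 6 members lower in both media at 24 h were GINS1, GINS4, ORC6, GMNN, POLE2 and RRM1, and no difference between the media was called for them at that time. Of the markers the effect on KRT19 also differed at 6 h, by -0.42, and its part was not tested.

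These counts rested on few arrays. At 6 h the count of 4 was 1 without array 59 or 63 and 2 without array 57, 60, 61, 64, 65 or 68, and it was 0 with only the arrays compared. At 24 h the count of 3 was 1 without array 93, 96, 97, 98 or 99, 1 without the DMSO array without serine on which RRM2 read 11.45 or that on which it read 11.58, 1 with each array centred on its median, and 1 with only the arrays compared.

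Other genes of the cell cycle gave the setting for the members. Of 29 further replication genes, among them origin recognition, fork protection and histone chaperone factors, compound 16 without serine lowered 2 at 6 h and 12 at 24 h and raised none. For this and the next lists, 1.23% of all genes were lower and 1.49% higher at 6 h without serine. At 24 h the shares were 4.08% and 2.97%. The largest drops at 24 h were ASF1B, a histone chaperone (-0.86), TICRR, an origin firing factor (-0.73), and TOP2A, the topoisomerase that untangles copied DNA (-0.50). With serine none of the 29 was called at 24 h, against 0.62% of all genes lower and 0.746% higher. At an unadjusted p under 0.05 in limma were 8 of the 29 and 2141 of the 18239 genes. Of 18 regulators of S phase entry 4 fell at 24 h without serine, CCNA2 (-0.61), E2F7 (-0.54), MYBL2 (-0.53) and SKP2 (-0.52), and CDKN1A, the p21 inhibitor of cyclin-dependent kinases, rose by 0.31 (adjusted p = 0.00186). SKP2, which marks p27 for destruction, and CDC25A, a phosphatase that activates the kinases, fell at 6 h by 0.71 and 0.57. Of 9 genes of the histone supply none was called at 24 h in limma, with 1 at an unadjusted p under 0.05, beside 3421 of the 18239 genes. At 6 h the 1 that fell was NPAT (-0.76), a regulator of histone gene transcription and not a histone.

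Mitosis genes, whose RNA peaks later in the cycle, were measured beside the members. All 21 fell under compound 16 without serine at 24 h, with a median of -0.65 and differences from -0.98 to -0.40, against 4.08% of all genes. At 6 h 2 fell, against 1.23% of all genes. With serine 1 of 21 fell at 24 h, against 0.62% of all genes lower. The difference between the media at 24 h was called for 19, all lower without serine, against 0.899% of all genes lower. In DMSO without serine 19 of the 21 rose from 6 to 24 h (median 0.36), against 4.47% of all genes higher. In the same interval 13 replication members fell there, against 7.35% of all genes lower. The compound arrays and DMSO arrays are those of the member comparisons, so the values stand side by side and no relation between the lists was tested.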

How the data were processed

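RNA from A549 cells was measured on 50 Affymetrix HG-U219 arrays. The deposited values are log2 signals of 49386 probe sets, which the authors made with RMA, per the submitters' processing notes. These notes also name limma, with versions not given in the sources used here. RMA normalizes the arrays to 1 distribution, so a change in total RNA per cell would not be seen. The limits of precision are the number of arrays in a group.

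Probe sets naming 1 gene (45259) were kept; those naming several (1327) or none (2800) were left out. Each gene took the probe set with the highest mean. The 17 group means were fitted over all 50 arrays in limma 3.58.1 (R 4.3.3), with contrasts for 25 comparisons, eBayes and Benjamini-Hochberg adjustment over 18239 genes. The members and lists were chosen with earlier results of these data known, and the comparison of compound effects at 24 and 6 h was added after values were seen. Array values are given for the 2 members of each role with the smallest p at 24 h without serine, for all members of roles with fewer than 3, and for members singled out after their values were seen. The member nearest 0 in each role is named as well. Alternatives were a filter on dim genes, quantile normalization, centring, the mean of all probe sets, only the arrays compared and leaving out each array. On simulated data for the compound comparison without serine at 24 h, the fit over 18239 genes recovered 51% of 100 genes changed by 0.5 and 99% of 100 genes changed by 1 (log2), and called 7 unchanged genes. For the difference between media at 24 h it recovered 40% and 79%, and for the lack of serine in DMSO at 24 h 63% and 97%. The changed genes were drawn from all genes, with a median SE of 0.12 beside 0.08 for the members in the compound comparison. These rates are therefore not those of the members.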

Additional observations from a re-analysis of the deposited data

Results flagged for a closer look

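The compound effect differed between media with and without serine, by a test of the difference in limma, for 4 members at 6 h and 3 at 24 h. Of all genes 0.28% were lower and 0.62% higher at 6 h, and 0.899% and 0.384% at 24 h. Either count was as low as 1 with 1 array left out, and both were lower when only the arrays compared were fitted. At 6 h the effect without serine minus the effect with serine was -0.57 for POLE2, -0.46 for FEN1, -0.35 for CDC6 and -0.32 for GMNN. At 24 h it was -0.44 for RRM2, -0.41 for TK1 and -0.64 for POLA2. Without serine the effect also differed between 24 h and 6 h, by -0.47 for RRM2 and -0.51 for TK1, against 1.16% of all genes lower and 0.57% higher. No member's value on 1 array was tested for standing apart, since groups of 2 or 3 arrays are too small for that rule.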

How the results depend on the processing

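No paired analysis was possible because the array numbers in the titles are not shared between groups. No called difference changed direction among the 24 members followed through the alternatives in 5 comparisons. CDT1 was not among them, and its probe sets disagree at 6 h. The median over the members, close to 0 in these comparisons, changed sign for compound 16 at 1.5 h without serine (0.02, from -0.01 to 0.03) and with serine (-0.01, from -0.04 to 0.01), and for the lack of serine in DMSO at 24 h (-0.02, from -0.04 to 0.01). It also crossed 0 for compound 16 with serine at 6 h. Fitting only the arrays compared, which leaves few residual degrees of freedom, called 2 members for compound 16 without serine at 6 h, 8 at 24 h and 0 with serine at 24 h. For how the effect differed with serine it called 0 at 6 h and 1 at 24 h. It called 1 for the difference between times, and 0 for the lack of serine in DMSO at 0, 1.5 and 6 h and in compound 16 at 24 h. For 6 against 0 h in DMSO it called 5 with and 9 without serine, and for 24 against 6 h 14 in DMSO with serine, 4 in DMSO without and 7 in compound 16 without. The mean of all probe sets called 12 for compound 16 with serine at 24 h, 8 and 20 for the lack of serine in DMSO at 1.5 and 6 h, and 5 for the difference between times. With arrays centred on their medians, 1 member was called for how the 24 h effect differed with serine, 13 for the lack of serine in DMSO at 1.5 h, 25 for 6 against 0 h in DMSO with serine and 9 for 24 against 6 h in compound 16 without serine. Leaving out dim genes called 6 for the lack of serine in DMSO at 1.5 h and 4 for the difference between times. The causes were not tested beyond the loss of arrays.

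Leaving out 1 array at a time called 7 to 12 members for compound 16 without serine at 6 h, 14 to 18 at 24 h and 2 to 6 with serine at 24 h. The range was 1 to 5 and 1 to 4 for the difference between media at 6 and 24 h. For the lack of serine in DMSO it was 6 to 10 at 0 h, 0 to 3 at 1.5 h and 4 to 8 at 6 h, and in compound 16 at 24 h 4 to 7. For 24 against 6 h in DMSO without serine it was 9 to 12. Of 31 counts that moved by over 1.5 times without 1 array, each is named beside its comparison. For single members 1312 alternative values kept their side of the threshold, 111 lost it and 41 gained it. Groups of 2 or 3 arrays limit what small differences can be seen.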
